A study of Mus musculus with 8 samples.

Results

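*Dntt*, *Chrna4*, *Lmod3*, *Bglap2*, *Obp2a* and *Capn8* are 6 genes grouped here as known from other tissues, whose signals differed strongly between *Agpat3* WT and *Agpat3* KO liver. The grouping does not mean that WT liver lacks their RNA. *Dntt*, *Lmod3*, *Obp2a* and 1 probe of *Capn8* were well above background on all 4 WT arrays. They were chosen by their names and by this very difference, so their own values between genotypes are described here without a test. Their probes were found through the transcript accessions of the array, which named 22911 genes in all and gave 7 of 56605 probes without the controls for these 6. *Capn8* had 2 probes and each of the other genes 1. In 1 genotype or both, 6 of the 7 probes were well above background on each of the 4 arrays and entered the fit over 29067 probes. The remaining one was the *Capn8* probe for transcript NM_130890. The liver RNA came from 4 *Agpat3* WT and 4 *Agpat3* KO mice, all male, 10 weeks old and of the C57BL/6 strain background. The KO mice lack *Agpat3* in the whole body, not in the liver alone. Each mouse had 1 one-color Agilent array, on which a spot of probe DNA binds Cy3-labeled RNA and its brightness is the signal. By the array headers, the WT samples lay in row 1 and the KO samples in row 2 of a slide. Same-numbered mice lay in the same column. The effect of the row, or of the slide if there was more than 1, cannot be told apart from that of the genotype. The brighter probe of *Agpat3*, the targeted gene, lay between 5.65 and 5.88 in WT and between -0.58 and 0.02 in KO liver (log2 signal), and all 12 hepatocyte genes examined were well above background on all 8 arrays.

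The 6 genes do unrelated work. *Dntt* encodes terminal deoxynucleotidyl transferase, a DNA polymerase that adds nucleotides without a template where lymphoid progenitors join the segments of their antigen receptor genes. *Chrna4* encodes an alpha subunit of neuronal nicotinic acetylcholine receptors, the ligand-gated cation channels of cholinergic signaling. *Lmod3* encodes a leiomodin, a protein that nucleates actin filaments in the sarcomeres of skeletal muscle, and *Bglap2* encodes osteocalcin, a vitamin K-dependent Gla protein that osteoblasts secrete. *Obp2a*, also listed as *Lcn13*, encodes an odorant-binding protein of the lipocalin family, small secreted carriers of hydrophobic molecules. *Capn8* encodes a calpain, a calcium-dependent cysteine protease, known from the mucus cells of the stomach.

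All signals below are log2 of the processed intensity minus the 75th percentile of the array. A spot is well above background where the scanner software says so. *Dntt* was -1.24, -1.04, -1.43 and -1.53 in the 4 WT livers and 2.07, 2.11, 2.49 and 2.14 in the 4 KO livers. It was well above background on all 8 arrays, so RNA of this lymphoid gene was measured in WT liver as well. The mean was -1.31 ± 0.22 (SD, n = 4) in WT and 2.20 ± 0.19 (SD, n = 4) in KO, an 11.4-fold difference. The groups lay far apart, and the lowest KO mouse was 8.66-fold above the highest WT mouse.

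*Chrna4* was -5.33, -3.83, -4.19 and -3.80 in WT and 0.40, 0.14, 0.83 and -0.45 in KO liver. It was well above background on 2 of 4 WT arrays and on all 4 KO arrays, so the KO level was measured while much of the WT level lay at the edge of detection. The mean was -4.29 ± 0.72 (SD, n = 4) in WT and 0.23 ± 0.53 (SD, n = 4) in KO, a log2 difference of 4.51. The lowest KO mouse was 10.2-fold above the highest WT mouse, WT replicate 4. That WT signal of -3.80 was well above background but dim, since the lowest such signal on its array was -4.09. The ratio thus also rests on a WT value near the edge of detection.

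*Lmod3* was -2.43, -2.30, -2.06 and -1.78 in WT and 0.12, 1.19, 1.16 and 0.94 in KO liver. All 8 arrays were well above background, and the groups did not overlap. The mean was -2.14 ± 0.28 in WT and 0.85 ± 0.50 in KO (SD, n = 4 each), a 7.98-fold difference. KO replicate 1 was the lowest of the KO mice, and it was still 3.74-fold above the highest WT mouse.

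*Bglap2* was -6.18, -3.39, -5.26 and -5.59 in WT and -2.13, -2.18, -2.50 and -2.85 in KO liver. It was well above background on 1 of 4 WT arrays, that of WT replicate 2, and on all 4 KO arrays. In WT replicate 1 the processed signal equaled its own error estimate within 1%, which is the value the software sets where no signal is left above background. The KO mice lay above every WT mouse, but the gap between the lowest KO and the highest WT mouse was 1.46-fold, and the means were -5.11 ± 1.20 in WT and -2.41 ± 0.34 in KO (SD, n = 4 each). With each array raised to its lowest signal well above background, the log2 difference of 2.69 became 1.58.

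The other 2 genes were lower in KO liver. *Obp2a* was -1.99, -3.01, -2.99 and -1.49 in WT and -6.18, -6.26, -6.36 and -4.29 in KO liver. It was well above background in all 4 WT mice and in 0 of 4 KO mice, and on 3 of the KO arrays the signal equaled its error estimate. Thus only a bound can be given for KO liver. The WT mean of -2.37 ± 0.76 (SD, n = 4) was at least 3.40-fold higher than the KO level, where each KO array was set to its dimmest signal that still counted as well above background, or to the *Obp2a* signal if that was brighter. The measured KO mean was -5.78 ± 0.99 (SD, n = 4).

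*Capn8* was -1.84, -2.0, -2.51 and -1.08 in WT and -4.22, -3.48, -5.88 and -3.0 in KO liver at the probe for transcript NM_001145806. All 4 WT arrays and 2 of 4 KO arrays were well above background. The mean was -1.86 ± 0.59 in WT and -4.14 ± 1.26 in KO (SD, n = 4 each), a log2 difference of -2.29, and -1.82 with each array raised to its lowest signal well above background. The lowest WT mouse was 1.40-fold above the highest KO mouse. The probe for transcript NM_130890 was not well above background on any of the 8 arrays, so it gives no value for a difference.

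**Figure D1:**
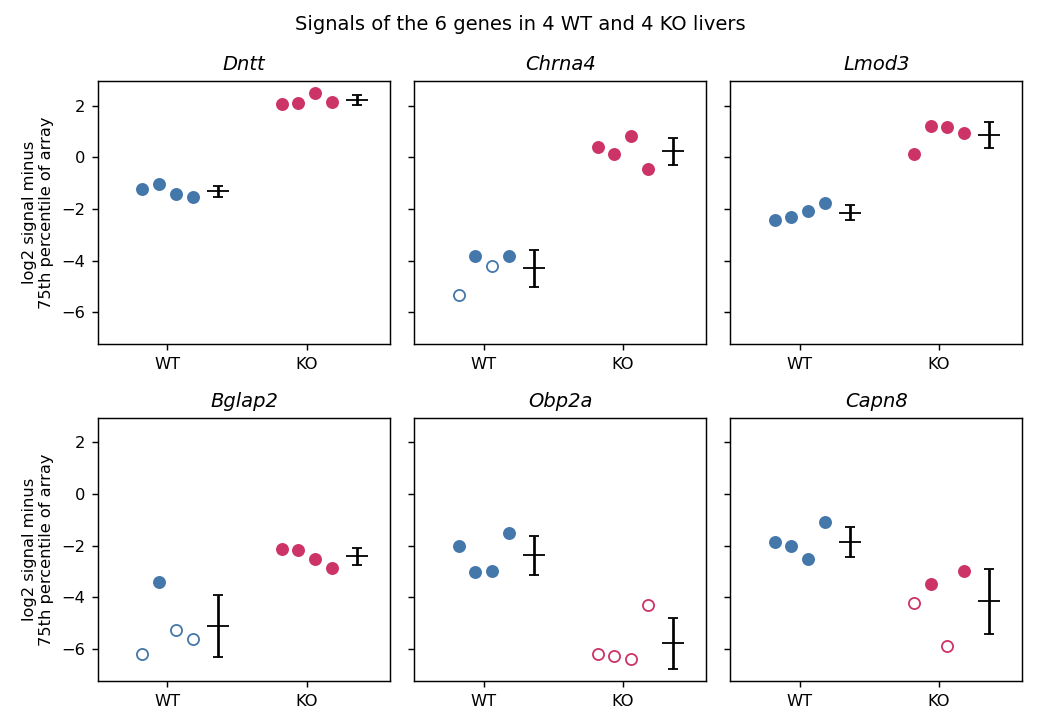
Log2 signal minus the 75th percentile of the array (y axis) for each gene in 4 WT (blue) and 4 KO (red) livers, replicates 1 to 4 from left to right; filled circles are well above background, open circles are not, and black bars give mean ± SD. *Dntt* and *Lmod3* are filled in all 8 mice, whereas *Obp2a* is open in all 4 KO mice and *Bglap2* in 3 of 4 WT mice.

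The raw spots showed how much light lay behind these values. The median local background of these spots was between 25 and 34 intensity units. The median spot signal of *Dntt* went from between 132 and 169 in WT to between 1088 and 1523 in KO, and that of *Lmod3* from between 90 and 114 to between 329 and 652. *Chrna4* went from between 54.5 and 69 to between 245 and 587. The spots of the other 3 genes stayed at or under 173 in both genotypes. *Bglap2* went from between 48.5 and 69 to between 79 and 121, *Obp2a* from between 79 and 139 to between 48.5 and 64, and *Capn8* from between 102 and 173 to between 52 and 84.

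**Figure D2:**
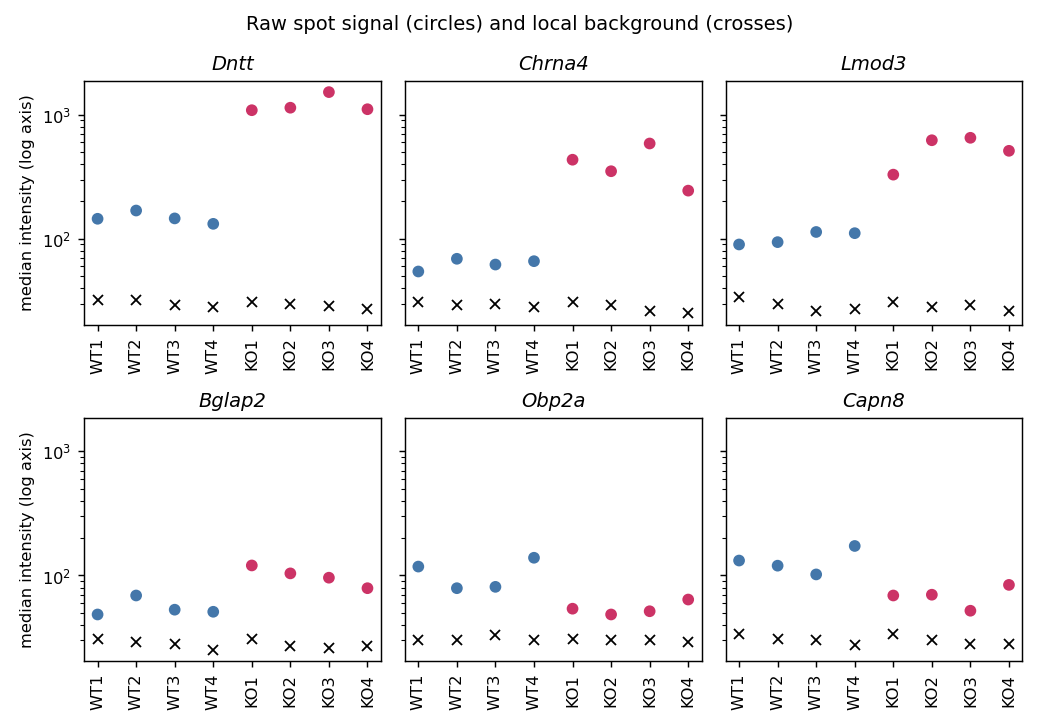
Raw median intensity of the spot (circles, WT blue and KO red) and of its local background (crosses) on each of the 8 arrays, on a log axis. The *Dntt* spot reached between 1088 and 1523 in KO liver, while the *Bglap2*, *Obp2a* and *Capn8* spots stayed at or under 173 on every array.

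The order of the mice was read only where all 4 mice of a genotype were well above background. Among the WT mice, WT replicate 4 had the highest signal for *Lmod3*, *Obp2a* and *Capn8* but the lowest for *Dntt*, for which WT replicate 2 was highest. Among the KO mice, KO replicate 3 was highest for *Dntt* and *Chrna4*, KO replicate 2 for *Lmod3* and KO replicate 1 for *Bglap2*. KO replicate 1 was lowest for *Dntt* and *Lmod3*, and KO replicate 4 for *Chrna4* and *Bglap2*. With 4 mice a genotype these orders are a description.

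To show the sequence at the 5′ ends of these genes, 300 bases around the annotated start (250 before and 50 after it) were taken from RefSeq on GRCm38.p6, which held 4 of the 6 genes, and *Obp2b* was added as the nearest paralog of *Obp2a*. In the lines below, written 5′ to 3′ on the strand of the gene, capitals mark a match on either strand to the TATA box (TATAAA), an E-box (CACGTG), the core of a sterol regulatory element (TCACNCCAC), the GC box (GGGCGG) or a DR4 element of LXR (AGGTCA, repeated after 4 bases).
Dntt chr19:41029025-41029324 (+ strand): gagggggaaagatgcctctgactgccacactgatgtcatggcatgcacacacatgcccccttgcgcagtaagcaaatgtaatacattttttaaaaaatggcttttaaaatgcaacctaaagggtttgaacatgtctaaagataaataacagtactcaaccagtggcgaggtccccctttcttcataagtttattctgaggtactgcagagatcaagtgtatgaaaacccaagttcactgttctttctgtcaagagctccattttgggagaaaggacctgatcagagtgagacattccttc
Chrna4 chr2:181039128-181039427 (- strand): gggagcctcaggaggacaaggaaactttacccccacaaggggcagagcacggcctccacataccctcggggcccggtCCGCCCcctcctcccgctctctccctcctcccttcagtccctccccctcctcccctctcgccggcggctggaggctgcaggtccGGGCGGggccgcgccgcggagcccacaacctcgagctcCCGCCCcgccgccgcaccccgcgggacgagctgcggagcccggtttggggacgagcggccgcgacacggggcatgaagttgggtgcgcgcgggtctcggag
Obp2a chr2:25699824-25700123 (+ strand): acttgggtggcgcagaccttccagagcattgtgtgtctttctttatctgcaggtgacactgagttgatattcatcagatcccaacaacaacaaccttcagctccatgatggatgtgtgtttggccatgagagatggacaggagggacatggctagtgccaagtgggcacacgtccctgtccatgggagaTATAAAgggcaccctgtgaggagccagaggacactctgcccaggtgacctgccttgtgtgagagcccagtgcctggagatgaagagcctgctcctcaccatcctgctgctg
Obp2b chr2:25736757-25737056 (+ strand): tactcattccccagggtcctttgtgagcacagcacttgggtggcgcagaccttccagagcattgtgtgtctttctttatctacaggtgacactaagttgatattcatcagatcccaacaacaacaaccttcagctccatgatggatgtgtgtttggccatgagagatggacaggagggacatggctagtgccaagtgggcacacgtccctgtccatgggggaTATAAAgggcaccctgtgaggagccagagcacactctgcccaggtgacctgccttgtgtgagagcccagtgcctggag
Capn8 chr1:182564757-182565056 (+ strand): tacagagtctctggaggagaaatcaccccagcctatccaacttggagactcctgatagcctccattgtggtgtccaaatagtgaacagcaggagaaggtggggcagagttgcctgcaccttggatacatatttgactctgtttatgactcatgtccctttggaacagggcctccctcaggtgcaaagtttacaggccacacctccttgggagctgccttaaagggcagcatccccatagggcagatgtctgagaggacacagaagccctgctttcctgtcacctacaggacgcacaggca
Among the genes that were higher in KO liver, the *Chrna4* window held 3 GC boxes and 74.3% G and C, and the *Dntt* window held none of the 5 motifs and 42.3% G and C. The median of all 32851 windows was 52.7%. Of all windows, 35.7% held a GC box, 13.6% a TATA box, 7.15% the E-box, 1.24% the sterol regulatory element core and 0.0152% the DR4 element. Of the genes that were lower, *Obp2a* held a TATA box, 61 bases before its annotated start, and *Capn8* held none of the 5 motifs. The windows of *Obp2a* and *Obp2b* matched at 263 of 267 aligned bases (98.5%), with no gap. *Obp2b* had no probe that was matched here, and whether the *Obp2a* probe also binds RNA of *Obp2b* was not tested.

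To determine whether the relatives of each gene moved with it, 96 related genes and partners were examined in the fit over all probes, with limma. A gene was called where its fold change exceeded 1.5 and its Benjamini-Hochberg adjusted p was under 0.2. Of these, 90 had a probe, 59 were tested, and 1 was called (1.69%), namely *Bglap3*. Over all 29067 probes 1.67% were called, 0.939% higher and 0.726% lower in KO liver, and over the brightest probe of each named gene 1.76%. All 6 tested probes of the 6 genes had groups that did not overlap, against 3.69% of all tested probes with every KO value above WT and 5.17% with every KO value below WT. Since the genes were chosen on this contrast, nothing is read from that count. The median log2 difference of the 59 relatives was -0.04, and that of all tested probes was -0.03.

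Mouse osteocalcin is encoded by neighboring, closely related genes, *Bglap* and *Bglap2*, with *Bglap3* beside them. *Bglap3* was -5.43, -2.75, -3.98 and -5.98 in WT and -1.91, -2.06, -1.86 and -2.23 in KO liver, and it was well above background on 2 WT and all 4 KO arrays. It rose by a log2 difference of 2.52 (standard error 0.63, limma adjusted p = 0.148), with no overlap between the genotypes. This value rests in part on WT signals that were not well above background, since the probe entered the fit through its KO arrays, and it was not tested where all 8 arrays had to be above background. With each array raised to its lowest signal well above background the difference was 1.74, and under normexp it was 0.77. WT replicate 2 had the highest WT signal of *Bglap3*, and it was the only WT mouse in which *Bglap2* was well above background. The call of *Bglap3* was lost in 6 of the 8 fits with 1 array left out, all but those without WT replicate 2 or WT replicate 4, with an adjusted p up to 0.277. *Bglap* was -5.59, -4.22, -4.98 and -4.71 in WT and -4.36, -4.29, -4.06 and -4.21 in KO liver, was well above background on 1 WT array alone, and was not tested. Whether the probes of *Bglap2* and *Bglap3* bind the same RNA was not tested. Among the other Gla proteins and the enzymes of the vitamin K cycle, *Ggcx*, the carboxylase, differed by -0.04, *Vkorc1* by 0.02, *Mgp* by -0.22 and *Gas6* by 0.41, none of them called.

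The relatives of the other genes were not called. All 10 genes of the X family of DNA polymerases and of end joining, the DNA repair route in which *Dntt* works, were well above background on all 8 arrays, and 0 were called by limma (3 at an unadjusted p under 0.05). Their log2 differences lay between -0.28 and 0.25, with *Polb* at -0.24, *Poll* at 0.05 and *Polm*, the closest relative of *Dntt*, at -0.18. Of 15 other nicotinic receptor subunits, 10 were not well above background on any array, among them *Chrnb2*, the usual partner of *Chrna4* in the brain. The 4 tested subunits were *Chrna2* at 0.40, *Chrna9* at -0.23, *Chrnb4* at 0.41 and *Chrne* at -0.04, with 0 called (1 at an unadjusted p under 0.05).

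Of the 12 leiomodins, tropomodulins and partners of *Lmod3* in the thin filament, 6 were tested with log2 differences from -0.17 to 0.36, and 0 were called (0 at an unadjusted p under 0.05). The paralogs *Lmod1* and *Lmod2* and the partners *Klhl40* and *Klhl41* were not well above background on any array. Of 20 lipocalins with a probe 13 were tested, with 0 called (0 at an unadjusted p under 0.05) and a median of -0.09. *Lcn2*, an acute-phase lipocalin, differed by -0.81, *Ptgds* by -0.62 and *Rbp4*, the retinol carrier of plasma, by -0.07. Of 15 calpains, subunits and the inhibitor *Cast*, 11 were tested, with differences from -0.21 to 0.37 and 0 called (2 at an unadjusted p under 0.05). *Capn9*, the partner of *Capn8* in the stomach, differed by 0.12 (standard error 0.12) and *Capn2*, a neighbor of it on the chromosome, by 0.13 (standard error 0.07).

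**Figure D3:**
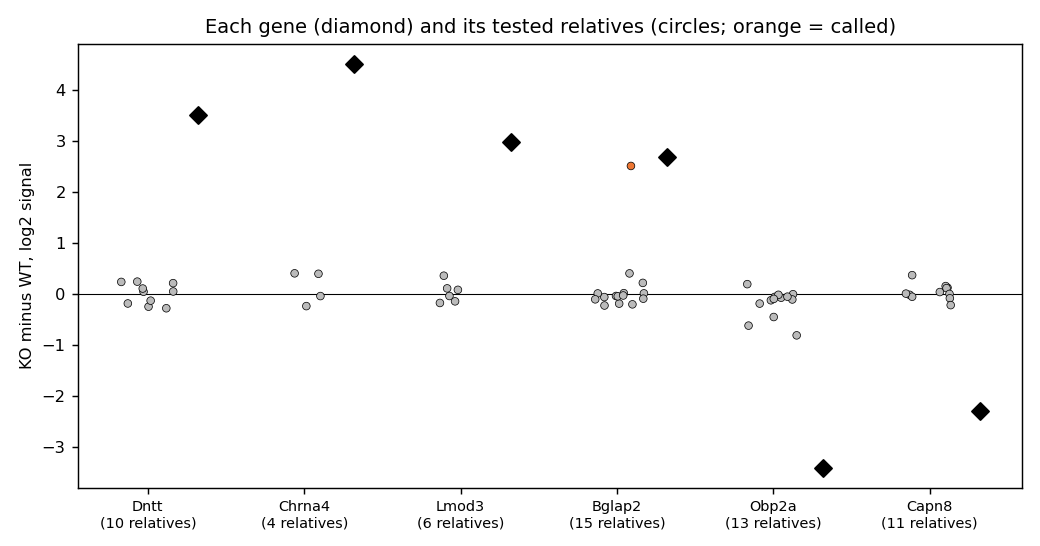
Log2 difference, KO minus WT (y axis), of each of the 6 genes (black diamonds) and of its tested relatives (circles, 1 per gene, called ones in orange). The only called relative is *Bglap3* at 2.52, and the other 58 lie between -0.81 and 0.41; the diamonds of *Chrna4*, *Bglap2*, *Obp2a* and *Capn8* include values that were not well above background.

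The levels of marker genes were then examined for the tissues in which these genes are known, and none of those tested was called higher. Of 74 such markers 72 had a probe and 35 were tested, with 0 higher and 2 lower (5.71% called, against 1.67% of all probes in either direction and 0.726% lower) and a median log2 difference of -0.08. Both were lymphoid, *Il7r*, the interleukin-7 receptor, at -0.79 (standard error 0.17, limma adjusted p = 0.106), and *Vpreb2*, a part of the surrogate light chain, which stood above background in no KO mouse, where it was lower by at least 1.08-fold (limma adjusted p = 0.119). Both probes entered the fit through their WT arrays, *Il7r* was well above background in 2 of 4 KO mice, and the bound for *Vpreb2* does not reach the fold change of 1.5 used for a call. Neither was called once WT replicate 2 or WT replicate 3 was left out. *Il7r* was also lost without KO replicate 1, and *Vpreb2* without KO replicate 2 or KO replicate 3, and under normexp they differed by -0.27 and -0.16 with neither called. Other lymphoid genes had the opposite sign and were not called, *Vpreb3* at 0.47 (standard error 0.16, limma adjusted p = 0.269) and the B cell factor *Pax5* at 0.45 (standard error 0.16, limma adjusted p = 0.292), and *Vpreb3* was called higher without WT replicate 4. Of the 16 lymphoid progenitor markers, 9 were tested, 4 of them had an unadjusted p under 0.05, and 6 were not well above background on any array, including the recombinase genes *Rag1* and *Rag2*. The summed linear signal of the list, relative to the 75th percentile, was between 5.27 and 6.31 in WT and between 5.16 and 5.79 in KO liver. Each such sum, here and below, is weighted toward the brightest genes of its list and says little of the dimmer ones. The brightest were *Cd3e* here (mean log2 signal 1.71 in WT, 1.57 in KO), *Pvalb* for muscle and *Snap25* for neurons. They were *Col1a2* and *Spp1* for bone and *Bpifa1* (1.06 in WT, 0.77 in KO) for the nasal list. In bulk liver RNA, fewer cells of a type and less RNA per cell cannot be told apart.

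For skeletal muscle, 6 of 14 markers were tested and 0 called (1 at an unadjusted p under 0.05), and *Ckm*, *Myh1*, *Actn3* and *Ttn* stood well above background in no mouse. The summed signal was between 2.62 and 2.91 in WT and between 2.46 and 2.89 in KO liver. For neurons 7 of 12 were tested and 0 called (1 at an unadjusted p under 0.05), with a summed signal between 11.9 and 13.8 in WT and between 12.3 and 14.4 in KO liver. *Nefl*, the light chain of neurofilaments, did not pass the filter and was not tested. It was -6.15, -6.52, -5.19 and -2.29 in WT and -0.71, -2.14, -1.17 and -4.76 in KO liver, well above background in WT replicate 4 and in KO replicates 1, 2 and 3, so that the genotypes overlapped. For bone cells 5 of 12 were tested and 0 called (0 at an unadjusted p under 0.05), and the osteoblast genes *Sp7*, *Ibsp*, *Runx2*, *Dmp1* and *Phex* were not well above background on any array. Their summed signal was between 13.5 and 30.7 in WT and between 12.2 and 15.7 in KO liver. *Col1a1* was 1.82 in WT replicate 2, whereas the rest of the WT mice had from -0.30 to 0.28. Between genotypes *Col1a1* differed by -0.95 and *Col1a2* by -0.61, the sign opposite to that of *Bglap2*, and neither was called. Of the 9 olfactory and nasal markers 4 were tested with 0 called (1 at an unadjusted p under 0.05), and their summed signal was between 2.31 and 2.73 in WT and between 1.91 and 2.35 in KO liver. Of the 11 gastric markers 9 had a probe and 4 were tested with 0 called (0 at an unadjusted p under 0.05), and the summed signal was between 0.770 and 1.02 in WT and between 0.715 and 0.830 in KO liver.

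Genes beside the 6 were examined as the 3 nearest named genes with a probe on each side, by their order on GRCm38.p6. Of these 36 genes, 24 were tested and 4 were called (16.7%), against 1.67% of all probes and 1.76% over the brightest probe of each named gene. The 4 include *Bglap3*, already counted among the relatives, whose probe entered the fit through its KO arrays. Of the 4, only *Blnk* was called in every fit with 1 array left out. The strongest was *Blnk*, which encodes an adaptor of B cell receptor signaling and lies near *Dntt* on chromosome 19. *Blnk* was -0.54, 0.51, 0.02 and 0.42 in WT and 1.55, 1.52, 1.31 and 1.61 in KO liver, well above background on all 8 arrays. It rose by 1.40 (standard error 0.22, limma adjusted p = 0.0448) with no overlap between the genotypes, and it was called in all 8 fits with 1 array left out, with changes from 1.18 to 1.53. Among the other neighbors of *Dntt*, *Opalin* and *Tll2* were above background on no array, and *Tm9sf3* differed by -0.07.

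Each of the other 3 called neighbors had the sign of the gene it lies near, but uncalled neighbors went either way. *Bglap3*, described above, was one of them. *Frmd4b*, near *Lmod3*, rose by 0.78 (standard error 0.21, limma adjusted p = 0.163) at its brighter probe, with a WT and a KO mouse overlapping, while its other probe differed by 0.56 and was not called. *Bmyc*, a *Myc*-related gene near *Obp2a*, fell by 0.77 on the log2 scale (standard error 0.21, limma adjusted p = 0.188), with every KO mouse below every WT mouse. With 1 array left out in turn, *Frmd4b* was called in 2 of the 8 fits (without WT replicate 4 or KO replicate 3) and *Bmyc* in 1 (without WT replicate 4). *Susd4*, a complement regulator near *Capn8*, differed by -1.10 (standard error 0.32) and was not called (limma adjusted p = 0.204). *Arl6ip5*, near *Lmod3*, went against it by -0.54 (standard error 0.10, limma adjusted p = 0.0666), with no overlap between the genotypes. Its fold change of 1.46 was under the one used for a call, which it passed without KO replicate 3. *Arfgap1* likewise went against *Chrna4* by -0.22 (limma adjusted p = 0.191) with no overlap. Near *Chrna4*, 0 of 4 tested neighbors were called by limma (2 at an unadjusted p under 0.05), and the annotated spans of the 4 called neighbors did not overlap those of the genes beside them.

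**Figure D4:**
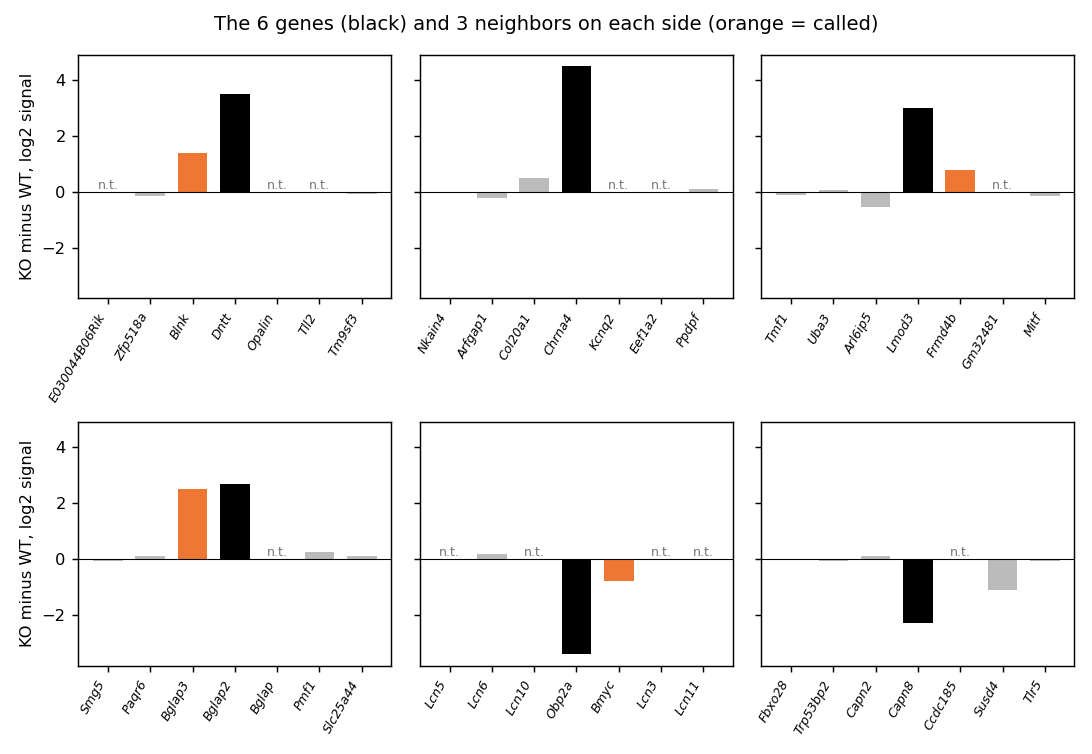
Log2 difference, KO minus WT (y axis), of the 6 genes (black bars) and of the 3 nearest named genes on each side, in chromosome order (orange, called; grey, not called; n.t., not tested). *Blnk* beside *Dntt* stands at 1.40 and *Bglap3* beside *Bglap2* at 2.52; the *Obp2a* bar includes KO values that were not well above background.

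The genes whose profile was most like that of each gene were found by the root mean square difference of the log2 signals over the 8 arrays, each profile centered on its own mean, among 14057 named genes. This measure is dominated by the difference between genotypes, by which the 6 genes were chosen, and is given as a description. *Pnpla3*, which encodes a lipid droplet protein of the patatin-like family and was well above background on 1 WT array, was nearest to *Dntt* (0.35) and to *Chrna4* (0.58). *Pnpla5* of the same family was next for *Dntt* (0.46), and then *Lmod3* (0.47). The genes nearest to *Lmod3* were *1810053B23Rik* (0.38), *Dntt* (0.47) and *Pnpla5* (0.51), and those to *Chrna4* after *Pnpla3* were *Dntt* (0.74) and *Lmod3* (0.95). Thus *Dntt* and *Lmod3* were each among the 3 nearest genes of the other, whereas *Chrna4* was not among the 3 nearest of either.

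*Bglap2* was nearest to *Bglap3* (0.47), *Stap1* (0.53) and *Tafa2* (0.57), which were well above background on 2, 1 and 1 of the WT arrays. *Obp2a* was nearest to *Wfdc12* (0.69), *Glp2r* (0.82) and *Capn8* (0.85). *Wfdc12* and *Glp2r* were above background in no KO mouse and were at least 1.62-fold and 1.58-fold lower there. *Capn8* was nearest to *Gm26868* (0.49), *Cyp7b1* (0.53) and *Wfdc12* (0.62). *Cyp7b1*, an enzyme of the alternative pathway of bile acid synthesis, was bright in liver, between 6.74 and 7.33 in WT and between 4.04 and 6.09 in KO, a mean log2 difference of -1.55.

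The processing changed the size of the differences. Under normexp background correction with an offset of 50, the log2 difference of *Dntt* was 2.89 in place of 3.51, that of *Lmod3* 2.15 in place of 3.00, and that of *Chrna4* 2.33 in place of 4.51. It was 0.68 in place of 2.69 for *Bglap2*, -0.73 in place of -3.40 for *Obp2a* and -0.79 in place of -2.29 for *Capn8*. The offset adds 50 to every intensity, so it must shrink the differences of dim spots most. How much of the loss comes from the offset was not tested. The direction was kept for all 6 genes under every alternative that gave a value. Since the genes were chosen on this contrast and their groups did not overlap, nothing is read from that. With 1 array left out, the direction could not have changed. With 1 array left out in turn, *Dntt* stayed between 3.42 and 3.60 and *Capn8* ranged from -2.67 to -1.71, the smallest without KO replicate 3.

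**Figure D5:**
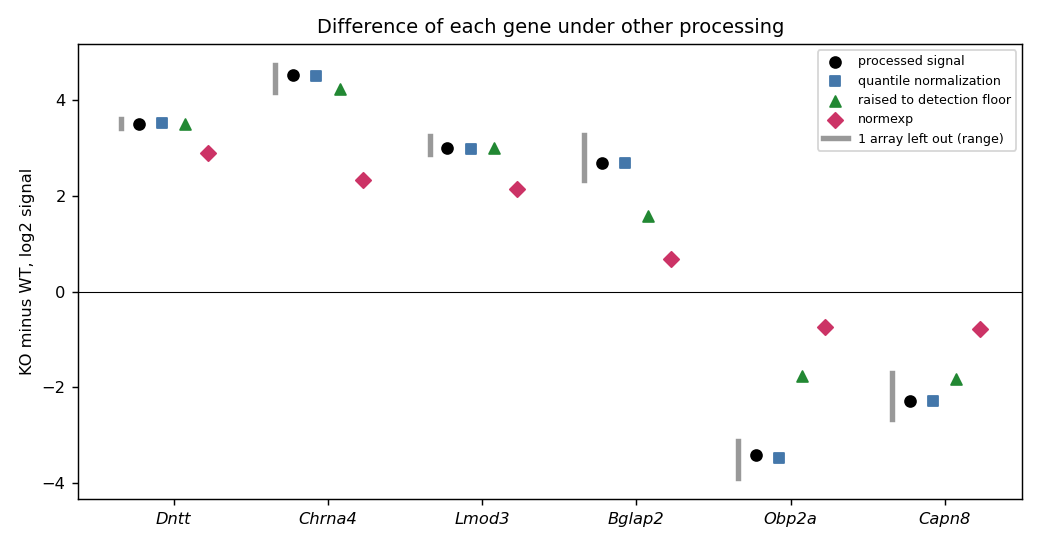
Log2 difference, KO minus WT (y axis), of each gene with the processed signal (black), quantile normalization (blue), each array raised to its lowest signal well above background (green) and normexp (red), with the range over fits that leave out 1 array (grey lines). *Dntt* stays at or above 2.89, whereas *Bglap2* goes from 2.69 to 0.68 and *Obp2a* from -3.40 to -0.73. The normexp offset shrinks the differences of dim spots by its design.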

How the data were processed

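Liver RNA of 4 *Agpat3* WT and 4 *Agpat3* KO mice was hybridized to 8 Agilent arrays with 1 dye. Spot values deposited by the authors are background-corrected linear intensity from Feature Extraction 10.7.1.1. The authors further deposited log2 values, which matched the log2 intensity minus the 75th percentile of the array within 0.01 for probes with 1 spot and were used as an alternative. Here, control and outlier spots were dropped, the 75th percentile of each array was subtracted from the log2 processed signal, and repeated spots were averaged. A probe was tested if, in either genotype, each of the 4 arrays was well above background. The two-sided test was limma 3.58.1 (lmFit, eBayes) under R 4.3.3 with Benjamini-Hochberg adjustment. The study gives a fold change over 1.5 and a p under 0.2 without saying whether p is adjusted, and the adjusted p was used. How precise the values are is set by the 4 arrays a genotype.

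Names came from RefSeq (GRCm38.p6) through accessions, which matched 32994 of 56605 probes. The array design names another mouse build, so the table gave only names and order. A gene was read from its brightest probe. The members and lists were chosen with earlier results of these data known. The genes named were the 6 genes, the called genes of each list, set paralogs and the 3 nearest profiles, and further examples from the lists were chosen after their values were seen. Same-numbered mice were not taken as pairs. Their deviations correlated by 0.33, -0.11, 0.10 and 0.32. The closest KO match of WT replicates 1, 2, 3 and 4 was KO replicate 1, 3, 3 and 4. Same-numbered mice shared a slide column, so a pairing and an effect of the column cannot be told apart. Nothing states whether the mice of a genotype came from separate litters. The fit was tested on simulated data.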

Additional observations from a re-analysis of the deposited data

Results flagged for a closer look

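For each gene and genotype the 4 mice were searched for 1 that stood apart, which held in 6 of 54 such groups. The genes were the 6 genes, set paralogs, *Agpat3*, the called genes of the lists and the nearest profiles. Chance gives about 1 in 20 for a single group. These groups share the same arrays, and the nearest profiles were picked to follow the 6 genes, so the count is not compared with that rate. KO replicate 3 had 2.49 for *Dntt*, against 2.07 to 2.14 in its group. KO replicate 4 had -4.29 for *Obp2a*, against -6.36 to -6.18, and none of these was well above background. For *Polb*, WT replicate 4 had 3.15 against 2.86 to 2.91, and KO replicate 4 had 2.84 against 2.65 to 2.66. For *Glp2r*, WT replicate 4 had -2.86 against -3.69 to -3.68. For *Cyp7b1*, KO replicate 3 had 4.04 against 5.82 to 6.09.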

How the results depend on the processing

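The number of called probes, 484 in all, was 245 under normexp, 253 with no filter on dim probes, 985 with an unadjusted p under 0.2 and 56 at a fold change over 2 with an adjusted p under 0.05. With 1 array left out it ranged from 250 to 610 and was over 1.5 times smaller without WT replicate 2 (306), WT replicate 3 (250) or KO replicate 2 (255). Among relatives the count of 1 was 0 with no filter, with probes above background on all 8 arrays and at the stricter threshold, 2 with the unadjusted p (*Ptgds* besides *Bglap3*), and between 0 and 1 with 1 array left out. Among markers the count of 2 was 0 under normexp, with no filter, with probes above background on all 8 arrays and at the stricter threshold, 5 with the unadjusted p, and between 0 and 3 with 1 array left out. Among neighbors the count of 4 was 1 with no filter and at the stricter threshold, *Blnk* in both, and between 1 and 4 with 1 array left out. It was 5 under normexp and with the unadjusted p, *Susd4* added in both. The causes were not tested, other than that these filters change which probes are tested. With the replicate block, 592 probes, 1 relative, 2 markers and 5 neighbors (*Susd4* added) were called. The correlations do not settle whether same-numbered mice are pairs, and the block also takes up the slide column. The 6 genes kept their direction, from which nothing is read, since they were chosen on this contrast. Raising each array to its lowest signal well above background, chosen after seeing the data, gave -1.77 for *Obp2a* and 4.24 for *Chrna4*. Requiring probes above background on all 8 arrays gave no value for *Chrna4*, *Bglap2*, *Obp2a* and *Capn8*. The median spot signal served as input for normexp.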
